A study of Homo sapiens with 4 samples.

Results

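The genes described here encode telomerase and shelterin, the machinery that builds and guards chromosome ends. They are TERT, TERC, DKC1 and WRAP53 on the telomerase side, and TERF1, TERF2, TERF2IP, POT1, TINF2 and ACD on the shelterin side. These 10 genes were chosen by name, and each matched 1 gene among the 63677 in the count files. Total RNA was sequenced from H929, an established human multiple myeloma cell line, in 2 groups of 2 libraries. Cells of one group were transduced with a short hairpin RNA (shRNA) that targets ILF2 and those of the other with a non-silencing shRNA. The ILF2 product takes part in binding double-stranded RNA. The submitters call the replicates independent, but nothing in the labels says that they were separate transductions, so p-values measure the spread between these libraries. Nor do the sources used here say if a single ILF2 hairpin was used for both, and effects of a hairpin on other genes cannot be told apart from loss of ILF2.

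Telomerase is a reverse transcriptase that adds telomere repeats to chromosome ends. TERT is its catalytic protein and TERC the RNA that carries the template. Dyskerin, the product of DKC1, binds and stabilises TERC, and the WRAP53 protein (TCAB1) brings the enzyme to Cajal bodies and telomeres. Shelterin coats the repeats: the TERF1 and TERF2 proteins (TRF1 and TRF2) bind the double-stranded part, POT1 binds the single-stranded overhang, and TINF2, ACD (TPP1) and TERF2IP (RAP1) join them together. Most somatic cells switch TERT off, and cancer cells commonly keep it on.

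Promoter sequence is shown for TERT, the telomerase gene whose RNA was lower with ILF2 shRNA, and for DKC1, whose RNA lay lower in both ILF2 shRNA libraries but missed the threshold. The windows are the 250 bases before the RefSeq start site, read 5′ to 3′ in the direction of the gene, on GRCh38.p14 (chr5:1295069-1295318, minus strand, and chrX:154762614-154762863, plus strand). Capitals mark the E-box CACGTG, bound by MYC and MAX family proteins, and the GC box GGGCGG, bound by SP1 family proteins, on either strand.
TERT promoter: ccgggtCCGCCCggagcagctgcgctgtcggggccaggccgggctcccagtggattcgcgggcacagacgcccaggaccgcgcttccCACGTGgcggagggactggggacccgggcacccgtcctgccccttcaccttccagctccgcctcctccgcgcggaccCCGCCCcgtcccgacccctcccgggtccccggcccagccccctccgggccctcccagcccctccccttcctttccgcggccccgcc
DKC1 promoter: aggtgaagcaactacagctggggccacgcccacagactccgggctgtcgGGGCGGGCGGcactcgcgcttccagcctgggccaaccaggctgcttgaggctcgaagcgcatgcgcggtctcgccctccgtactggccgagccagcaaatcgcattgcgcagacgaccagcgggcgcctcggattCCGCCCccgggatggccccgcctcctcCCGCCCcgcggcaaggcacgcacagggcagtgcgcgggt

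The TERT window held 1 E-box, which begins 163 bases before the start site, and 2 GC boxes. The DKC1 window held 0 E-boxes and 4 GC boxes, of which 1 pair overlaps. An E-box was present in 6.34% of 35116 promoter windows of this length and a GC box in 42.6%. RefSeq windows were matched for 7 of the 10 genes, 10 windows in all, and only that of TERT held an E-box. TERC, TERF1 and TERF2 had no window, so their promoters were not searched. The E2F motifs searched, TTTCGCGC and TTTGGCGC on either strand, were found in 0 of these windows and in 0.968% of all windows. A motif match describes letters and does not show binding.

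ILF2 was examined first as a check of the labels. ILF2 (ENSG00000143621) had 107 and 114 CPM in the ILF2 shRNA libraries, against 717 and 733 CPM in the non-silencing libraries, so 15.3% of the non-silencing level remained. CPM is the fragment count of a gene scaled to a common library size, here adjusted with edgeR's TMM factors. Between 63459322 and 72977082 fragments were counted per library. Of 8 plasma cell markers all 8 were detected, with a summed level of 14579 and 14695 CPM in ILF2 shRNA libraries and 12330 and 12635 CPM in non-silencing libraries. JCHAIN alone averaged 7638 CPM with ILF2 shRNA and 5766 CPM with non-silencing shRNA, and SDC1 went against the sum (log2 fold change -0.24, edgeR adjusted p = 0.00616). The sum over 4 T cell markers was 16.1 and 17.1 CPM in ILF2 shRNA libraries and 8.27 and 7.52 CPM in non-silencing libraries, nearly all of it CD3E. The sum over 4 epithelial markers, nearly all KRT18, was 30.4 and 30.2 CPM with ILF2 shRNA and 25.3 and 24.3 CPM with non-silencing shRNA. CDH1, under 1 CPM in every library, went against that sum (log2 fold change -1.54, edgeR adjusted p = 0.0266). The sum over 4 myeloid markers was 0.612 and 0.462 CPM with ILF2 shRNA and 0.688 and 0.846 CPM with non-silencing shRNA. In neither the epithelial nor the myeloid sum did the groups overlap. Over 4 fibroblast markers the sum was 0.251 and 0.144 CPM with ILF2 shRNA and 0.081 and 0.180 CPM with non-silencing shRNA, and EPCAM and COL1A2 were at 0 in every library. Mitochondrial genes took 0.516% and 0.463% of fragments in ILF2 shRNA libraries and 0.351% and 0.307% in non-silencing libraries. The part of these differences in the results on telomere genes was not tested.

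With ILF2 shRNA, TERT and TERF1 fell and the other 8 genes did not pass the test. All 10 genes passed the filter on low counts. The threshold for a call was an adjusted p of 0.05 (edgeR's quasi-likelihood test, Benjamini-Hochberg adjustment over 19142 genes). So 2 of the 10 were called lower and 0 higher, while 10.1% of all tested genes were called lower and 10.2% higher. At an unadjusted p under 0.05, 3 of the 10 were lower and 0 higher, against 15.4% and 15.5% of all tested genes. In either direction 20.3% of tested genes were called, so the share among the 10 lay near that of all genes. The median log2 fold change of the 10 genes, ILF2 shRNA over non-silencing shRNA, was -0.02, and that of all tested genes was -0.00146.

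**Figure D1:**
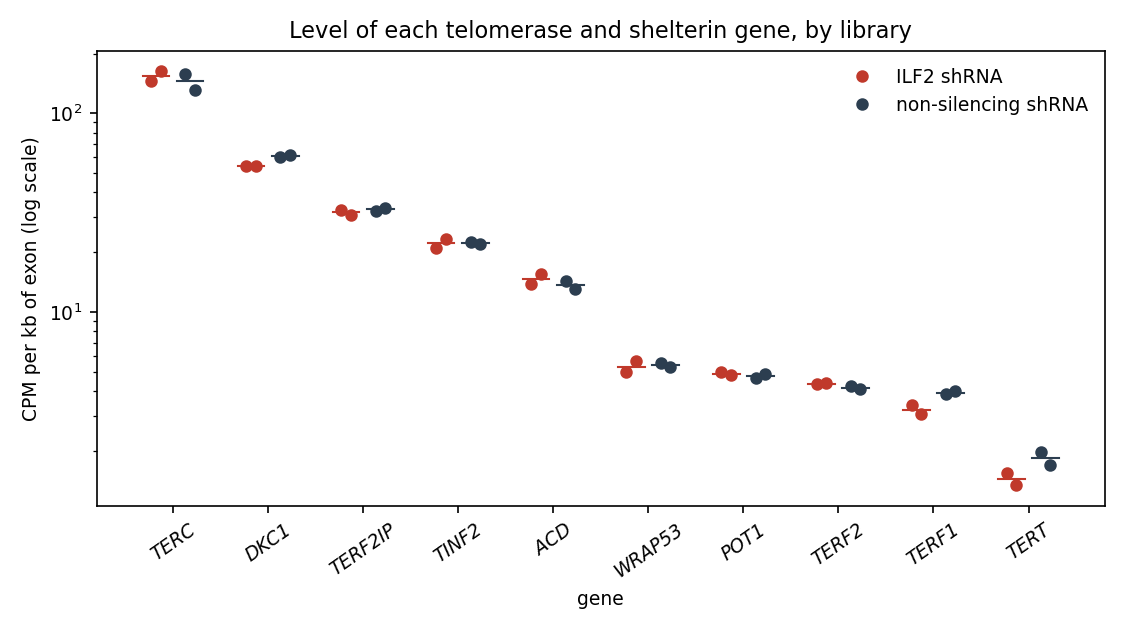
Level of each gene in each library, in CPM per kilobase of exon on a log scale, with ILF2 shRNA libraries (red) left of non-silencing libraries (dark); points are libraries and bars the mean of 2. TERC is highest and TERT lowest in every library, and the ILF2 shRNA libraries lie below both others for TERT, DKC1 and TERF1.

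The level of each gene per kilobase of exon kept nearly the same order in all 4 libraries. TERC was highest, at 146 and 163 CPM per kilobase in ILF2 shRNA libraries and 158 and 132 in non-silencing libraries. DKC1 came next at 54.1 to 62 CPM per kilobase over the 4 libraries, followed by TERF2IP at 30.9 to 33.4, TINF2 at 21.0 to 23.3 and ACD at 13.0 to 15.5. WRAP53 (4.97 to 5.66 CPM per kilobase) and POT1 (4.64 to 4.997) overlapped and changed places in ILF2 shRNA replicate 1. TERF2 (4.10 to 4.37 CPM per kilobase) lay just below POT1 and above TERF1 (3.05 to 3.999) in every library. The order depends on the length used, that of all annotated exons of a gene, 8831 bases for TERF1 and 5621 for TERF2. In CPM, TERF1 lay above TERF2 in every library. TERT was lowest, at 1.55 and 1.35 CPM per kilobase in ILF2 shRNA libraries and 1.99 and 1.70 in non-silencing libraries. Among all tested genes TERC stood at percentile 98.5 of the level per kilobase and TERT at percentile 43.2, so the template RNA was among the abundant transcripts and the catalytic subunit was not.

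TERT (ENSG00000164362, GRCh37 chromosome 5, 1253262 to 1295184, minus strand) had 455 and 430 fragments in ILF2 shRNA libraries, against 679 and 564 in non-silencing libraries. These were 7.14 and 6.21 CPM with ILF2 shRNA and 9.17 and 7.83 CPM with non-silencing shRNA. Both ILF2 shRNA libraries lay below both non-silencing libraries, and ILF2 shRNA replicate 2 was the lowest. The log2 fold change was -0.35 (95% interval -0.56 to -0.14, SE 0.11; adjusted p = 0.0121 in edgeR), which leaves 78.5% of the non-silencing level. The call was lost without ILF2 shRNA replicate 2 (log2 fold change -0.25, edgeR adjusted p = 0.172) and without non-silencing replicate 1 (-0.23, edgeR adjusted p = 0.315), and DESeq2 gave the same fold change with an adjusted p of 0.0831. Over all alternatives the adjusted p for TERT ran between 0.00368 and 0.315. TERT has a GC content of 65.6%. With all 4 libraries kept, its log2 fold change ran between -0.36 and -0.28 over the alternatives, the GC and length correction among them. In bulk RNA a lower level in every cell and fewer cells with TERT cannot be told apart.

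TERC (ENSG00000270141, GRCh37 chromosome 3, 169482308 to 169482848, minus strand), the template RNA, had 79.0 and 87.9 CPM in ILF2 shRNA libraries and 85.6 and 71.3 CPM in non-silencing libraries, so the groups overlapped. Its log2 fold change was 0.09 (95% interval -0.06 to 0.24, SE 0.08; adjusted p = 0.46 in edgeR). TERC has a GC content of 66.7%, and with GC content and exon length corrected for, an alternative chosen after the data were seen, it was 0.18 higher and called (edgeR adjusted p = 0.00348). Without non-silencing replicate 2 the value was -0.04, and the adjusted p for TERC ran between 0.00348 and 0.959 over all alternatives. TERT fragments per TERC fragment were 0.0903 and 0.0707 in ILF2 shRNA libraries and 0.107 and 0.110 in non-silencing libraries, a ratio within each library that does not depend on library scaling, and both ILF2 shRNA libraries were lower. TERT fragments per DKC1 fragment were 0.0314 and 0.0274 in ILF2 shRNA libraries and 0.0363 and 0.0301 in non-silencing libraries, so the groups overlapped. These ratios were chosen after the values were seen.

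DKC1 (ENSG00000130826, GRCh37 chromosome X, 153991031 to 154005964, plus strand) was steady between replicates. It had 228 and 227 CPM in ILF2 shRNA libraries and 252 and 260 CPM in non-silencing libraries, and the groups did not overlap. Its log2 fold change of -0.17 (SE 0.07, 95% interval -0.31 to -0.04) narrowly missed the threshold (edgeR adjusted p = 0.0542). It passed in DESeq2 (adjusted p = 0.028), limma-voom (adjusted p = 0.0486) and after the GC and length correction (edgeR adjusted p = 0.000222), with adjusted p between 0.000222 and 0.435 over all alternatives. The box H/ACA RNA genes SNORA36A and SNORA56 lie within DKC1 and share 117 and 129 bases with its annotated exons. They had 0 to 3 and 0 fragments per library, and since fragments that fall on more than 1 gene are taken to be left out, the counts do not measure these RNAs well.

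WRAP53 (ENSG00000141499, GRCh37 chromosome 17, 7589389 to 7606820, plus strand) had 25.3 and 28.8 CPM in ILF2 shRNA libraries and 28.3 and 26.8 CPM in non-silencing libraries. The groups overlapped, with a log2 fold change of -0.03 (95% interval -0.19 to 0.14, SE 0.08; adjusted p = 0.874 in edgeR).

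**Figure D2:**
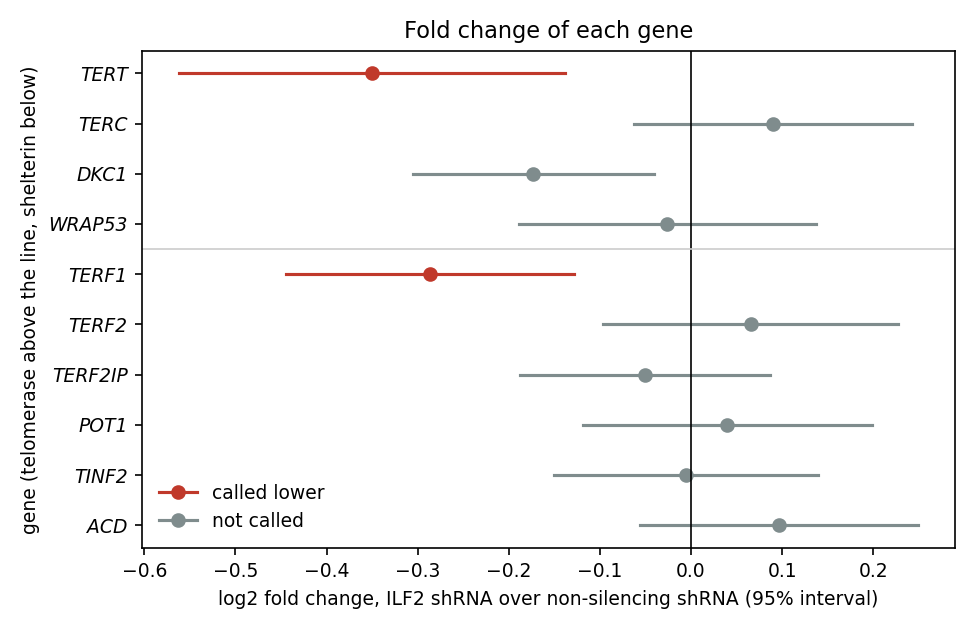
Log2 fold change of each gene, ILF2 shRNA over non-silencing shRNA, with its 95% interval from edgeR; telomerase genes stand above the line and shelterin genes below. TERT (-0.35) and TERF1 (-0.29) were called lower (red), and the intervals of 7 of the other 8 genes include 0, all but DKC1.

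In shelterin, TERF1 was the only gene called. TERF1 (ENSG00000147601, GRCh37 chromosome 8, 73921099 to 73960357, plus strand) had 30.0 and 26.9 CPM in ILF2 shRNA libraries, against 34.1 and 35.3 CPM in non-silencing libraries. The groups did not overlap, and ILF2 shRNA replicate 2 was again the lowest. The log2 fold change was -0.29 (95% interval -0.44 to -0.13, SE 0.08; adjusted p = 0.0054 in edgeR), which leaves 82.0% of the non-silencing level. The call was lost without ILF2 shRNA replicate 2 (-0.21, edgeR adjusted p = 0.0972) and without non-silencing replicate 2 (-0.26, edgeR adjusted p = 0.113), and over all alternatives the adjusted p for TERF1 ran between 0.000256 and 0.113. TERF1 has 7 annotated pseudogenes, of which TERF1P5 took the most fragments (518 over all 4 libraries), and fragments that map to several copies are taken to be left out, so its absolute level is uncertain.

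TERF2 (ENSG00000132604, GRCh37 chromosome 16, 69389464 to 69442474, minus strand), the close relative of TERF1, had 24.4 and 24.6 CPM in ILF2 shRNA libraries and 23.8 and 23.0 CPM in non-silencing libraries. The ILF2 shRNA libraries lay just above the others, with a log2 fold change of 0.07 (95% interval -0.10 to 0.23, SE 0.08; adjusted p = 0.642 in edgeR). TERF1 fragments per TERF2 fragment were 1.23 and 1.10 in ILF2 shRNA libraries and 1.43 and 1.53 in non-silencing libraries. This ratio was chosen after the values were seen. Its groups could not overlap, since both ILF2 shRNA libraries were lower for TERF1 and higher for TERF2.

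TERF2IP (ENSG00000166848, GRCh37 chromosome 16, 75681684 to 75795770, plus strand), whose protein travels with TRF2, had 110 and 104 CPM in ILF2 shRNA libraries and 109 and 113 CPM in non-silencing libraries. Its groups overlapped, and the log2 fold change was -0.05 (95% interval -0.19 to 0.09; adjusted p = 0.675 in edgeR). POT1 (ENSG00000128513, GRCh37 chromosome 7, 124462440 to 124570037, minus strand), which caps the overhang, had 29.5 and 28.3 CPM with ILF2 shRNA and 27.3 and 28.8 CPM with non-silencing shRNA, a log2 fold change of 0.04 (95% interval -0.12 to 0.20; adjusted p = 0.787 in edgeR). In both genes the groups overlapped. TERF2IP shares 176 exon bases with KARS1 and POT1 111 with POT1-AS1, each on the opposite strand, which the authors counted separately, and neither was called (adjusted p = 0.274 and 0.761 in edgeR).

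TINF2 (ENSG00000092330, GRCh37 chromosome 14, 24708849 to 24711880, minus strand), the hub that ties TRF1 and TRF2 to TPP1, had 57.0 and 63.2 CPM with ILF2 shRNA and 61.2 and 59.4 CPM with non-silencing shRNA. The log2 fold change was -0.01 (95% interval -0.15 to 0.14; adjusted p = 0.974 in edgeR). ACD (ENSG00000102977, GRCh37 chromosome 16, 67691415 to 67694713, minus strand), whose product recruits telomerase, had 44.4 and 49.9 CPM in ILF2 shRNA libraries and 46.3 and 41.9 CPM in non-silencing libraries, a log2 fold change of 0.10 (95% interval -0.06 to 0.25; adjusted p = 0.425 in edgeR). Like TERC it is rich in GC (61.8%) and was called higher (0.13, edgeR adjusted p = 0.0367) after the GC and length correction, with adjusted p between 0.0367 and 0.97 over all alternatives. The groups overlapped for TINF2 and for ACD. ACD shares 58 exon bases with CARMIL2 on the opposite strand, and CARMIL2 was at -0.58 on the log2 scale (adjusted p = 1.19e-07 in edgeR).

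The summed level of shelterin overlapped between the groups. Over its 6 genes the sum was 80.1 and 81.9 CPM per kilobase in ILF2 shRNA libraries and 82.0 and 81.3 in non-silencing libraries. TERF1 made up 4.25% and 3.72% of that sum in ILF2 shRNA libraries and 4.72% and 4.92% in non-silencing libraries, and TERF2IP between 37.7% and 41.0% in all 4. The percentages also depend on the exon lengths used. Across the 10 telomere genes both ILF2 shRNA libraries lay below the others for 3 and above for 1, while these shares were 28% and 28.5% of all tested genes, and 56.5% in either direction.

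**Figure D3:**
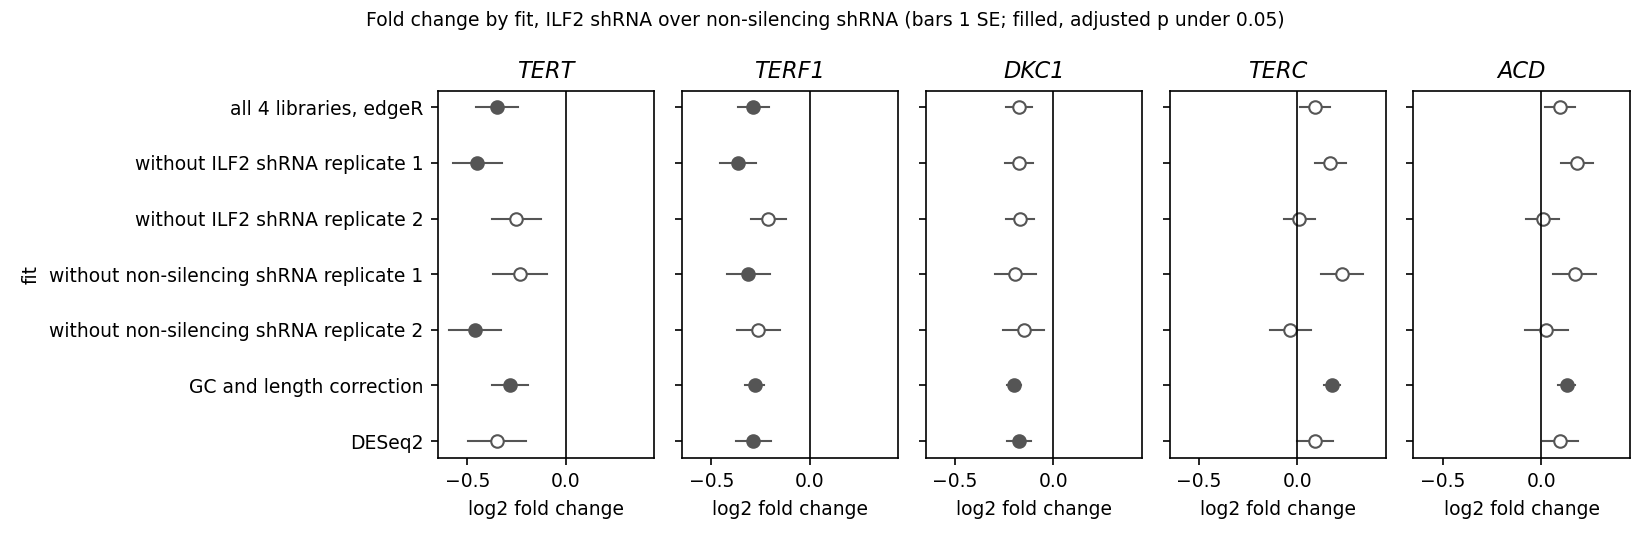
Log2 fold change (ILF2 shRNA over non-silencing shRNA) with 1 SE for 5 genes in 7 fits; filled points have an adjusted p under 0.05. TERT and TERF1 stay below 0 in every fit shown, each is called in 2 of the 4 fits that leave out a library, and TERC and ACD are called only after the GC and length correction.

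TERT lies near the end of the short arm of chromosome 5. Of 900 tested genes on chromosome 5, 29.7% were called higher and 3.33% lower, and their median log2 fold change was 0.15, against -0.01 on other chromosomes. Within 1 Mb of TERT 26 other genes were tested, of which 11 rose and 1, ZDHHC11, fell, with a median of 0.26. The nearest on one side, CLPTM1L, 22.7 kb away, had 1095 and 1172 CPM in ILF2 shRNA libraries and 912 and 910 CPM in non-silencing libraries, which is 0.32 higher on the log2 scale (SE 0.07; adjusted p = 0.000196 in edgeR). On the other side SLC12A7, 141.1 kb away, was 0.13 higher on that scale and did not pass (adjusted p = 0.24 in edgeR), though it was called at 0.17 after the GC and length correction (edgeR adjusted p = 0.00647; 0.00647 to 0.775 over all alternatives). TERT was lower in a region where 11 of 12 other called genes were higher. The 95% intervals of TERT (-0.56 to -0.14) and CLPTM1L (0.18 to 0.45) lay on opposite sides of 0, which already follows from their calls. TERT fragments per CLPTM1L fragment were 0.00652 and 0.00530 in ILF2 shRNA libraries and 0.0101 and 0.00860 in non-silencing libraries. This ratio too was chosen after the values were seen, and its lower level with ILF2 shRNA follows from the values of both genes.

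**Figure D4:**
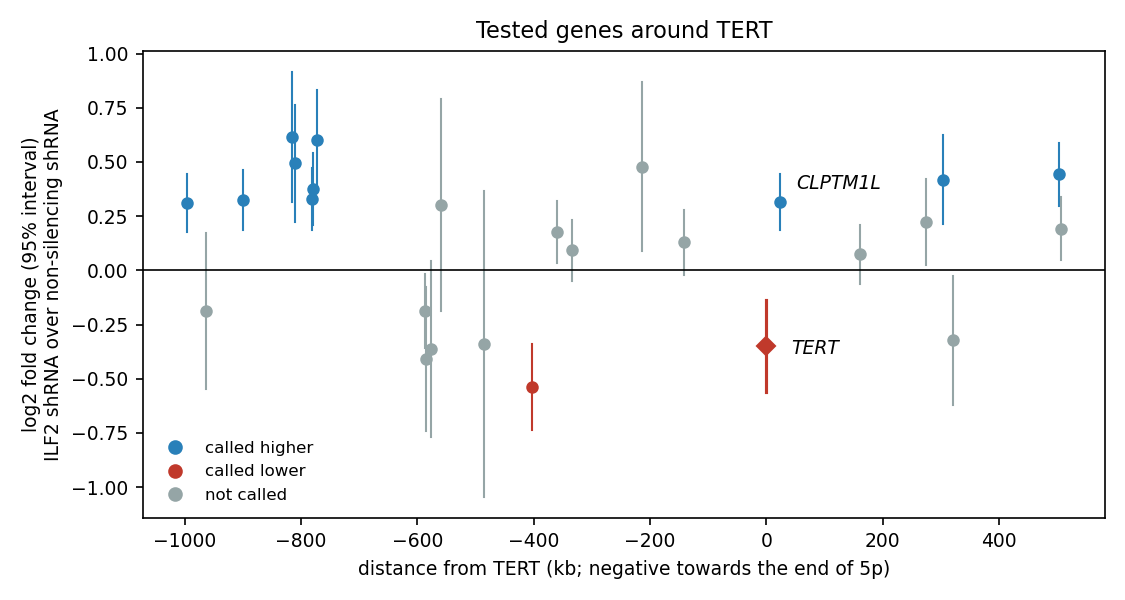
Log2 fold change (ILF2 shRNA over non-silencing shRNA) with 95% intervals of tested genes within 1 Mb of TERT, by distance from TERT in kb; LINC02982 (2.10, under 1 CPM in both groups) lies off the scale and is not drawn. TERT (diamond, -0.35) lies below 0 beside CLPTM1L (0.32), and 11 of the 26 neighbours, LINC02982 included, were called higher.

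Of the 17 tested genes that assemble telomerase or process TERC, 2 fell and 1 rose, counts near the 10.1% lower and 10.2% higher of all tested genes. Their median was -0.04 on the log2 scale. NOP10, a small subunit that joins dyskerin on TERC, rose by 0.22 (SE 0.07; edgeR adjusted p = 0.0169), to 90.5 and 93.9 CPM in ILF2 shRNA libraries, against 80.1 and 78.4 CPM in non-silencing libraries. Its partners in the same complex did not pass: the difference was 0.13 for NHP2 (adjusted p = 0.172 in edgeR) and 0.07 for GAR1 (adjusted p = 0.668 in edgeR). NHP2 lies on chromosome 5, where the median of tested genes was 0.15. RUVBL1, an ATPase of telomerase assembly, fell by 0.22 on the log2 scale (edgeR adjusted p = 0.0155). TENT4B, a poly(A) polymerase that adds tails to TERC precursors and marks them for decay, fell by 0.26 (edgeR adjusted p = 0.0124). All 3 calls were lost without non-silencing replicate 2, when 0 genes of the list were lower and 0 higher. The counts were 4 lower and 1 higher without ILF2 shRNA replicate 1, 1 and 0 without ILF2 shRNA replicate 2, and 1 and 0 without non-silencing replicate 1. After the GC and length correction 8 were lower and 2 higher.

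Of 24 tested genes that replicate and process chromosome ends, 9 fell and 1 rose, where 10.1% of all tested genes were called lower and 10.2% higher. Their median was -0.13 on the log2 scale, against -0.00146 over all tested genes. POLA1, the catalytic subunit of the polymerase alpha complex that fills in the telomere's C-rich strand, had 67.9 and 65.4 CPM in ILF2 shRNA libraries, against 83.3 and 93.0 CPM in non-silencing libraries, or -0.40 on the log2 scale (SE 0.07; adjusted p = 1.48e-05 in edgeR). DCLRE1B, which encodes the Apollo nuclease that TRF2 brings to telomeres, had 15.2 and 15.0 CPM with ILF2 shRNA and 19.4 and 19.04 CPM with non-silencing shRNA (log2 fold change -0.35, edgeR adjusted p = 0.00187). RIF1 was at -0.30 (adjusted p = 0.00115 in edgeR), a call lost without non-silencing replicate 2 (edgeR adjusted p = 0.173; 2.91e-06 to 0.173 over all alternatives). RAD50, part of the MRE11 end-binding complex, rose by 0.33 (edgeR adjusted p = 0.00119), but not past the threshold without ILF2 shRNA replicate 1 (edgeR adjusted p = 0.102) or non-silencing replicate 1 (edgeR adjusted p = 0.0694), with 1.02e-07 to 0.102 over all alternatives. It too lies on chromosome 5. CTC1 and STN1, which with TEN1 form the CST complex that brings polymerase alpha to telomeres, had log2 fold changes of 0.11 and 0.06 (edgeR adjusted p = 0.331 and 0.634), and TEN1 missed the low-count filter. Only 2 genes of this list were lower without non-silencing replicate 2, and 14 were after the GC and length correction. Many of its members also serve DNA replication and repair elsewhere in the genome.

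Among 17 tested genes of telomeric chromatin and of alternative lengthening, the recombination route that can replace telomerase, 5 fell and 1 rose, beside 10.1% lower and 10.2% higher over all tested genes. Their median was -0.06 on the log2 scale. SUV39H2, a histone H3 lysine methyltransferase of heterochromatin, had 26.1 and 24.8 CPM in ILF2 shRNA libraries, against 34.02 and 38.01 CPM in non-silencing libraries. On the log2 scale this was -0.50 (SE 0.08; adjusted p = 1.83e-06 in edgeR), the largest in size among the tested genes of the 4 pathway lists. CBX5 and CBX3, which encode the heterochromatin proteins HP1 alpha and gamma, had log2 fold changes of -0.25 and -0.26 (edgeR adjusted p = 0.00335 and 0.00525). CBX5 was lost without either non-silencing library (edgeR adjusted p = 0.133 and 0.0879), and CBX3 without ILF2 shRNA replicate 2 (0.176) or non-silencing replicate 2 (edgeR adjusted p = 0.273). Over all alternatives the adjusted p ran between 8.12e-05 and 0.133 for CBX5 and between 4.46e-06 and 0.273 for CBX3. ATRX, the chromatin remodeller whose loss marks alternative lengthening, rose by 0.28 (edgeR adjusted p = 0.00248), to 112 and 97.4 CPM in ILF2 shRNA libraries, against 82.8 and 89.3 CPM in non-silencing libraries. That call was lost without ILF2 shRNA replicate 1 (edgeR adjusted p = 0.0821) or non-silencing replicate 1 (edgeR adjusted p = 0.172), with 4.99e-06 to 0.172 over all alternatives. Without non-silencing replicate 2 only 1 gene of the list was lower, and 3 were without ILF2 shRNA replicate 2 or non-silencing replicate 1, while the risers numbered 2 and 0 in these last fits.

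**Figure D5:**
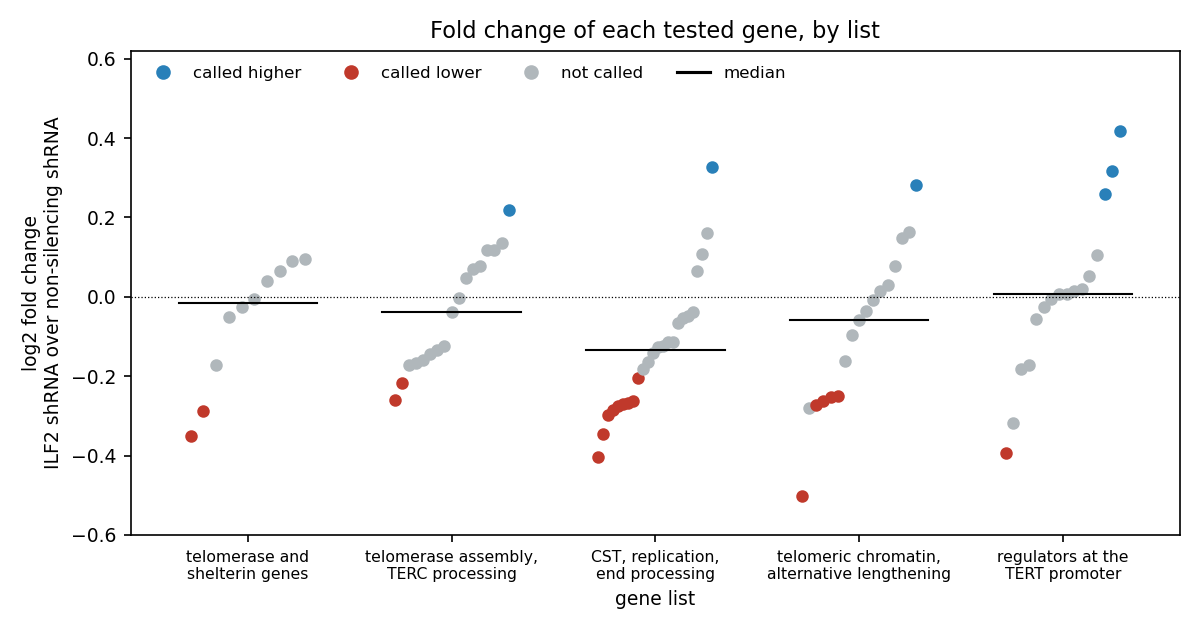
Log2 fold change (ILF2 shRNA over non-silencing shRNA) of each tested gene in 5 lists, sorted within a list; black bars are medians. The telomerase and shelterin genes span -0.35 to 0.10, and the median of the list for CST, replication and end processing is the lowest, at -0.13.

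Of 16 tested regulators described at the TERT promoter, 3 rose and 1 fell, while 10.2% of all tested genes rose and 10.1% fell. Their median was 0.01 on the log2 scale. MYC, an activator that binds E-boxes with MAX, had 278 and 311 CPM in ILF2 shRNA libraries, against 247 and 226 CPM in non-silencing libraries, or 0.32 on the log2 scale (SE 0.07; adjusted p = 0.00035 in edgeR). It missed the threshold without non-silencing replicate 2 (edgeR adjusted p = 0.115; 3.82e-07 to 0.115 over all alternatives). MXI1 and MXD1 encode repressors that compete with MYC for MAX. MXI1 had 42.3 and 44.1 CPM with ILF2 shRNA and 31.1 and 33.6 CPM with non-silencing shRNA (log2 fold change 0.42, edgeR adjusted p = 2.53e-05), and MXD1 rose by 0.26 (edgeR adjusted p = 0.0348), a call lost when any 1 library was left out (edgeR adjusted p = 0.0763 to 0.279) and in DESeq2 (adjusted p = 0.101), with 0.0116 to 0.279 over all alternatives. E2F1, a factor of the G1 to S transition, had 88.2 and 95.5 CPM in ILF2 shRNA libraries, against 123 and 118 CPM in non-silencing libraries, or -0.39 on the log2 scale (adjusted p = 1.28e-05 in edgeR). Binding at the E-box of the TERT window shown above was not measured. The risers in this list numbered 1 without non-silencing replicate 2 and 2 without each of the other libraries, and 2 genes were lower without ILF2 shRNA replicate 1. WT1 missed the low-count filter.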

How the data were processed

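The authors deposited raw counts of fragments per gene, 1 file per library, made per the file headers with featureCounts (Subread 1.4.6-p2) for paired fragments, strand setting 2, exons summed by gene and Ensembl release 75 of GRCh37. STAR 2.3.0 and SAMtools 0.1.19 are named, with no role, per the submitters' processing notes. No header option keeps fragments with several places or genes, so such fragments are assumed to be uncounted. Symbols were matched by Ensembl ID for 55665 of 63677 genes. The libraries held 63459322 to 72977082 counted fragments.

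Groups came from the sample titles. Counts were fitted in edgeR 4.0.16 (R 4.3.3) with TMM, filterByExpr (minimum count 10), robust dispersion and a two-sided quasi-likelihood test on group, adjusted by Benjamini-Hochberg over 19142 genes. SEs and 95% intervals come from the F statistic and the fit's degrees of freedom. The biological coefficient of variation was 5.38%. On counts simulated for these 19142 genes, true log2 changes of 0.25, 0.5, 0.75 and 1 (50 genes each) were called in 28%, 72%, 96% and 98%. All other genes were simulated unchanged. In all 151 genes were called there, against 3885 in the data, so the adjustment was stricter in the simulation. Exon GC content was read from the GRCh37 genome.

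The genes, lists and tests were chosen with earlier results of these data known. Named from each list were up to 4 genes with the smallest adjusted p under 0.05, besides the 10 genes, ILF2, genes whose exons overlap them and the nearest neighbours of TERT. One overlapping gene is not reported here. NHP2, GAR1, CTC1, STN1, TEN1, WT1, ZDHHC11, LINC02982, JCHAIN, SDC1, CD3E, KRT18, CDH1, EPCAM and COL1A2 were named after their values were seen. PINX1 matched 2 gene IDs and was not used. The same fit was repeated with a replicate block, with each library left out, with normalisation by DESeq2 size factors or by upper quartiles, without the low-count filter or with 1 CPM required in 2 libraries, and after removal of mitochondrial genes and highly abundant small RNAs. DESeq2 1.42.0 and limma-voom (limma 3.58.1) served as other tests. A GC and length correction (mgcv 1.9.3) was added after seeing the data.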

Additional observations from a re-analysis of the deposited data

How the results depend on the processing

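The direction and side of the threshold held for TERF2, TERF2IP and POT1 in all 13 alternatives. TERT was -0.35 and not called in DESeq2. DKC1 was called at -0.18 with upper-quartile factors and with the filter of 1 CPM in 2 libraries, and at -0.17 in DESeq2 and limma-voom. After the GC and length correction, added after seeing the data, TERC (0.18), DKC1 (-0.20) and ACD (0.13) were called, so 2 of the 10 genes were higher. That correction gave 2 higher and 8 lower genes in the assembly list, 2 and 14 in the end processing list, 3 higher in the chromatin list, 3 lower regulators, 15 higher and 2 lower genes around TERT, and 2856 higher and 2907 lower genes in all. Lower regulators numbered 2 with DESeq2 size factors, with upper-quartile factors and with no filter, and 3 in DESeq2 and with the 1 CPM filter. DESeq2 called 1363 genes higher and 1261 lower.

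The replicate numbers do not pair the libraries: deviations from the group mean correlated at -0.0247 between libraries of the same number. With the replicate block TERF1 (-0.29) was not called (edgeR adjusted p = 0.0523), leaving 1 of the 10 lower. The block left 0 higher and 0 lower genes in the assembly list, 4 lower in the end processing list, 3 lower in the chromatin list, and 1291 higher and 1297 lower genes in all.

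With each library left out in turn, log2 fold changes ran between -0.46 and -0.23 for TERT, -0.36 and -0.21 for TERF1, -0.0353 and 0.23 for TERC, -0.12 and 0.067 for WRAP53, and -0.0811 and 0.0693 for TINF2. WRAP53 and TINF2 were above 0 without ILF2 shRNA replicate 1 (0.067 and 0.0693) and without non-silencing replicate 1 (0.0133 and 0.0156), and TERC was below 0 without non-silencing replicate 2 (-0.0353). Of the 10 genes 0 to 2 were lower, and their median ran between -0.0475 and 0.0404. In the assembly list 0 to 1 were higher and 0 to 4 lower, in the end processing list 0 to 1 and 2 to 10, in the chromatin list 0 to 2 and 1 to 4, and among regulators 1 to 2 and 1 to 2. Over all genes 1029 to 1899 were higher and 1070 to 1822 lower. The causes were not tested. In simulated counts for the same 19142 genes only 28% of changes of 0.25 on the log2 scale were recovered. Far fewer genes were called there than in the data (151 against 3885), so the share recovered in the data may differ and was not measured. Genes that did not pass may still have changed.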
